A study of Anoectochilus roxburghii with 9 samples.

Results

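Genes whose transcripts rose at least 4-fold in leaves of Anoectochilus roxburghii under both ArPHR2 and ArPHR4 overexpression numbered 89 of the 85512 assembled genes measured. Anoectochilus roxburghii is a medicinal orchid. The leaf RNA was sequenced in 9 libraries, all labelled WT in genotype, transient overexpression in treatment and day 3 in time. In 3 libraries the leaves had received an empty vector (EV), in 3 the ArPHR2 construct and in 3 the ArPHR4 construct, and a deposited list of sample names writes YFP, a fluorescent protein, in all 9 names. The labels name neither the promoter of the constructs nor the share of leaf cells that took them up. In bulk leaf RNA, a change in the share of cells of a type and a change in RNA per cell cannot be told apart.

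PHR proteins are transcription factors of the MYB type. In Arabidopsis and rice they bind a short palindromic element in promoters and activate genes for phosphate uptake, phosphate release and membrane lipid exchange when phosphate is short, and SPX proteins hold them back when phosphate is ample. The files pair none of the assembly IDs with a gene name, so no gene described here has a known role, and neither the phosphate starvation genes nor markers of leaf cell types could be looked up. The labels were not tested on the constructs' own transcripts either, since their IDs are not known.

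The genes were chosen from the measured counts. The count of a gene was divided by the library total and multiplied by 1000000 to give counts per library of that size (CPM), and the mean of the 3 libraries was taken in each group. A gene entered with an EV mean of at least 0.5 and under 1000 CPM, a mean of at least 10 CPM in both overexpression groups, and a mean at least 4 times that of EV in each. Of 25573 genes in the EV range, 11357 had at least 10 CPM in both overexpression groups, 104 of those reached 4-fold in ArPHR2, 207 reached it in ArPHR4, and 89 reached it in both. The 89 are numbered here from 1 by mean CPM over the 6 overexpression libraries, highest first. Their rise over EV is what selected them and is given as a description. Library totals ran from 16032716 to 17244083 counts. Pairs of libraries from the same group differed by 1.99 to 3.07 times what counting noise gives (median over genes of the squared difference), so none looked like a library deposited again.

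The rise over EV was moderate for most of the 89 genes and very large for a few. The median fold was 6.27 in ArPHR2, with a range of 4.02 to 206, and 11.6 in ArPHR4, with a range of 4.04 to 297. Taking the smaller of both folds, 28 genes lay between 4 and 5, 42 between 5 and 10, 12 between 10 and 20, and 7 at 20 or more. By the edgeR quasi-likelihood test at an adjusted p under 0.05, all 89 were called higher than EV in ArPHR2, where 22.6% of the 27275 tested genes were called higher, and all 89 in ArPHR4, where 26.1% were. Called higher in both groups were 16.4% of the tested genes. These contrasts chose the genes, so nothing is read from those calls. In 87 of the 89 genes every overexpression library lay above every EV library, and in 68 the lowest overexpression library was at least 4 times the highest EV library. The 4-fold limit on means of the same libraries favours such separation. Its share over all tested genes was not counted, so nothing is read from it either.

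**Figure D1:**
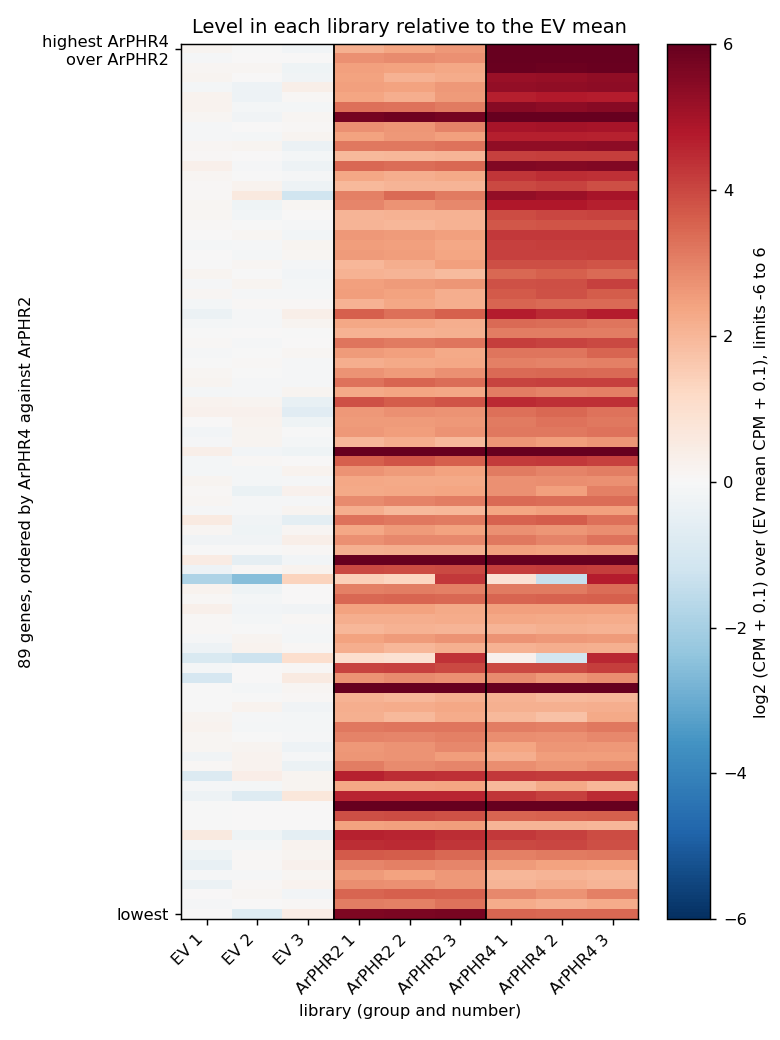
Level of the 89 genes (rows) in each of the 9 libraries (columns), as log2 of CPM + 0.1 over the EV mean + 0.1, with genes ordered by the difference between ArPHR4 and ArPHR2. The EV columns are near 0 and the overexpression columns are positive nearly throughout, with the darkest ArPHR4 cells in the top rows, where ArPHR4 exceeded ArPHR2 by up to 4.16 on the log2 scale. The 2 rows that break the pattern are members 53 and 84, which were high in the libraries numbered 3 of every group.

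Together the 89 genes took 0.226% ± 0.00274 of all EV counts (SD, n = 3), and that share was 2.41% ± 0.0345 under ArPHR2 and 2.65% ± 0.0240 under ArPHR4. Member 1 alone made up 40.5% ± 0.515 of that sum in EV, 56.0% ± 1.21 in ArPHR2 and 40.4% ± 0.720 in ArPHR4. Without it the share was 0.134% ± 0.00191, 1.06% ± 0.0153 and 1.58% ± 0.00732, so that the rest took more of the counts in ArPHR4 than in ArPHR2. Without members 1 to 10 it was 0.0525% ± 0.000684, 0.350% ± 0.00847 and 0.691% ± 0.0146. These sums follow from the choice of genes and carry no test.

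Levels between genes were compared per transcript length, on the FPKM deposited by the authors (fragments scaled by transcript length and library size). The median rank of the 89 genes among all genes of the table by mean FPKM was 16909 in EV, 4131 in ArPHR2 and 2304 in ArPHR4. None of the 89 was among the 100 highest FPKM in EV, and 4 were in each overexpression group. Member 2, with a short implied length (count divided by FPKM) of 261 bases, went from 730.1 ± 27.0 FPKM and rank 156 in EV to 6711 ± 187 FPKM and rank 5 in ArPHR2 (SD, n = 3). In ArPHR4 it reached 13417 ± 447 FPKM and rank 2. Member 1 was at 272 ± 5.71 FPKM in EV, rank 500, at 4147 ± 158 in ArPHR2, rank 11, and at 3315 ± 69.7 in ArPHR4, rank 14. It led by CPM because its implied length was 3255 bases. Implied lengths as low as 23.2 and 71.3 bases, for members 85 and 72, are shorter than a whole transcript, so FPKM levels of such genes are uncertain.

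Member 3 moved from rank 166 to 14 and 18, with 669 ± 17.7, 3548 ± 111 and 2688 ± 25.3 FPKM in EV, ArPHR2 and ArPHR4 (SD, n = 3). A longer climb was that of member 4, from rank 8558 at 22.9 ± 2.90 FPKM to rank 53 at 1441 ± 27.2 FPKM in ArPHR2 and rank 48 at 1402 ± 41.4 FPKM in ArPHR4. Member 6 went from rank 12024 at 13.5 ± 8.63 FPKM to rank 108 at 828 ± 24.9 in ArPHR2 and rank 132 at 709 ± 20.1 in ArPHR4. Its EV libraries were at 7.49, 9.65 and 23.4 FPKM, so its EV mean and rank rested largely on the library numbered 3.

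By the smaller of both folds, the 2 genes that rose most were TRINITY_DN2001_c0_g1 and TRINITY_DN888_c0_g3. TRINITY_DN2001_c0_g1, member 7, had 2.24, 1.57 and 1.46 CPM in the EV libraries, 372, 351 and 364 CPM in ArPHR2 and 513, 507 and 544 CPM in ArPHR4. Each overexpression library was at least 156 times the highest EV library, and the ArPHR4 libraries lay above those of ArPHR2. The mean was 206 times EV in ArPHR2 and 297 times in ArPHR4, on 37, 26 and 24 counts in the EV libraries. TRINITY_DN888_c0_g3, member 24, had 1.09, 0.483 and 0.667 CPM in the EV libraries, 106, 108 and 96.4 CPM in ArPHR2 and 121, 131 and 125 CPM in ArPHR4. Its folds were 139 and 168, on 18, 8 and 11 EV counts, so counting error in EV limits them. Between the constructs both were higher in ArPHR4, member 7 by a log2 difference of 0.49 ± 0.0421 (SE, edgeR adjusted p = 2.47e-11) and member 24 by 0.25 ± 0.0566 (SE, edgeR adjusted p = 0.000875), and the latter was not called by limma on log2(FPKM + 1).

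The next by the smaller fold were members 6, 4 and 22. Member 6 rose from 4.81 ± 0.120 to 526 ± 11.8 CPM in ArPHR2 and 427 ± 8.61 in ArPHR4 (SD, n = 3), 109-fold and 88.9-fold, whereas its FPKM folds were 61.3 and 52.4. Member 4 rose from 20.2 ± 1.73 to 1376 ± 18.1 and 1339 ± 15.0 CPM, 68.3-fold and 66.5-fold. In member 22 the folds differed more, 62.1 in ArPHR2 and 283 in ArPHR4, from 0.727 ± 0.106 CPM in EV. Members 22 and 24 share their assembly components with IDs that were higher than them in EV, and the summed components rose 15.1-fold and 59.9-fold for member 22 and 27.7-fold and 33.2-fold for member 24.

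**Figure D2:**
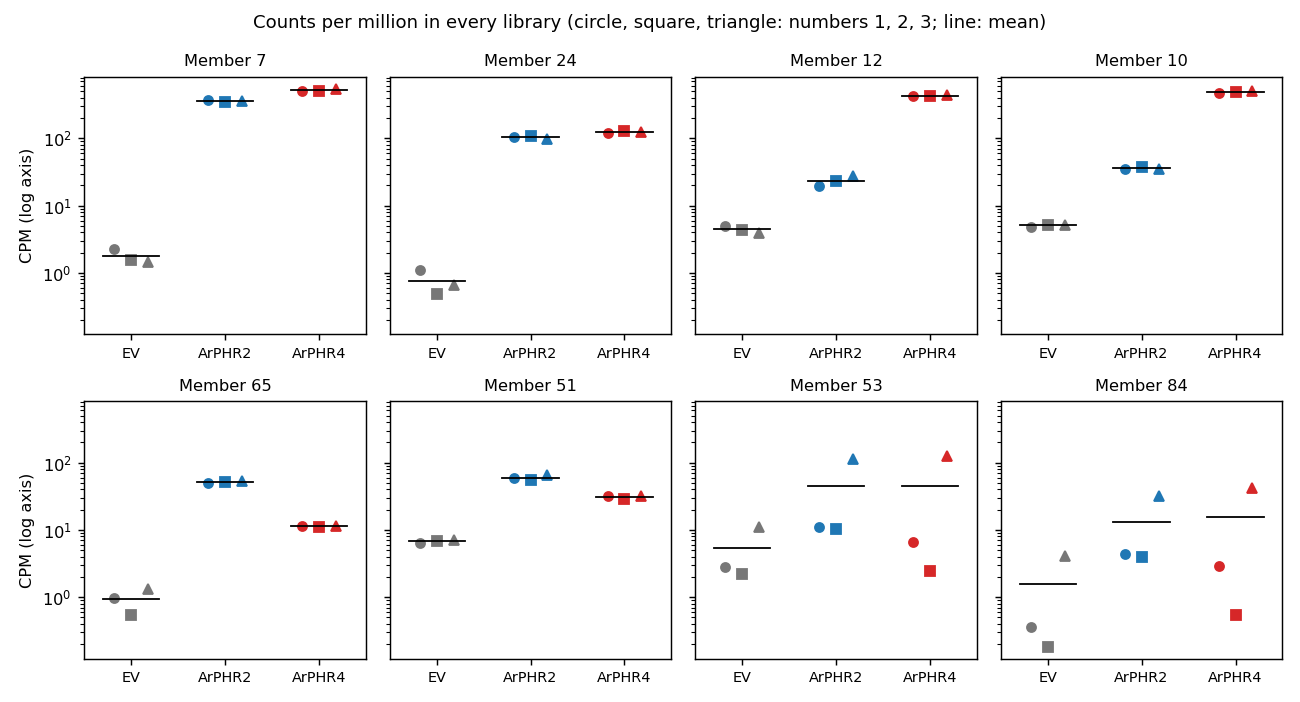
CPM on a log axis in each of the 9 libraries for 8 of the 89 genes, with circles, squares and triangles for the libraries numbered 1, 2 and 3 and a line at each group mean. Members 7 and 24 rose most by the smaller of both folds, 12 and 10 rose much further in ArPHR4, and 65 and 51 rose further in ArPHR2. In members 53 and 84 the triangles stand far above the other symbols in all 3 groups.

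At the lower edge of the choice, members 20, 30 and 49 lay just inside the limit. Member 20 was at 12.8 ± 0.790, 51.3 ± 1.15 and 224 ± 2.94 CPM in EV, ArPHR2 and ArPHR4 (SD, n = 3), 4.02-fold and 17.5-fold. Member 30 had folds of 4.02 and 15.6, and member 49 had 5.81 and 4.04. The 3 genes just outside had smaller folds of 3.96, 3.86 and 3.84, and larger ones of 8.30, 6.92 and 4.79.

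All 9 libraries went into the choice of the 89 genes, so the rise was also described with the choice made again from the libraries of 1 number and looked up in the others. These libraries are the same ones, and 79, 77 and 81 of the genes chosen again from numbers 1, 2 and 3 were among the 89. Applied to the library numbered 1 of each group alone, the limits chose 88 genes. Of these, 79 were at least 4-fold over EV in both groups in the libraries numbered 2, and 76 in those numbered 3. From the libraries numbered 2, 83 genes were chosen, and 74 passed in the libraries numbered 1 and 74 in those numbered 3. From the libraries numbered 3, 94 were chosen, and 74 and 75 passed in the others. For number 1, the median of the smaller fold was 6.10 where it chose the genes and 5.99 and 6.07 elsewhere. It went from 5.77 to 6.04 and 6.08 for number 2, and from 6.08 to 5.74 and 5.69 for number 3. Single genes moved further than these medians. The lowest smaller fold in the other libraries was 2.05 and 2.33, 1.24 and 1.89, and 0.497 and 1.09 in the same order. Some genes were thus flat there or under EV. All 9 libraries had already gone into the choice of the 89, so this lookup is a description and no independent repeat.

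In 2 genes the levels depended on 1 library per group. Member 53 had 2.85, 2.24 and 11.2 CPM in the EV libraries, 11.0, 10.3 and 112 CPM in ArPHR2 and 6.57, 2.45 and 125 CPM in ArPHR4. Member 84 had 0.364, 0.181 and 4.12 CPM in the EV libraries, 4.35, 3.91 and 31.6 CPM in ArPHR2 and 2.89, 0.537 and 42.7 CPM in ArPHR4. In both genes the library numbered 3 was the highest of its group in all 3 groups, and the ranges of EV and the overexpression groups overlapped. Without the libraries numbered 3, member 53 was 4.18-fold over EV in ArPHR2 and 1.77-fold in ArPHR4, and member 84 fell below the limits on CPM with 0.273 CPM in EV, 4.13 in ArPHR2 and 1.72 in ArPHR4. The folds of member 84 were then 15.1 and 6.29, beside 8.54 and 9.87 with all libraries. Both were singled out after their values were seen. The other 87 genes varied far less: the highest coefficient of variation within a group was 60.2% in EV, 17.3% in ArPHR2 and 19.3% in ArPHR4, and the median over all 89 was 11.7%, 5.74% and 4.29%. Without the libraries numbered 3 the limits chose 84 genes, 81 of them among the 89.

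Most of the 89 genes differed between both constructs, and most of these were higher under ArPHR4. In the direct comparison, fitted with edgeR on all tested genes, 52 were higher in ArPHR4 at an adjusted p under 0.05, 14 were lower and 23 were not called. Over all tested genes 16.3% were called higher and 16.2% lower. The limits that chose the genes treat both constructs alike and use no ratio between them, but they do use the mean of each construct over the same libraries. The tested genes as a whole were not chosen for a rise, so they are not a matched background for the 89. The median log2 difference was 0.44 over the 89 genes, with quartiles of -0.098 and 1.58 and a range of -2.22 to 4.16, beside a median of 0.00042 and quartiles of -0.32 and 0.29 over all tested genes. At 2-fold or more, 29 were called higher and 1 lower, against 3.9% and 4.66% of all tested genes. The libraries of both groups did not overlap, with ArPHR4 above in 58 genes and with ArPHR4 below in 20, beside 23.3% and 18.9% of all tested genes.

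**Figure D3:**
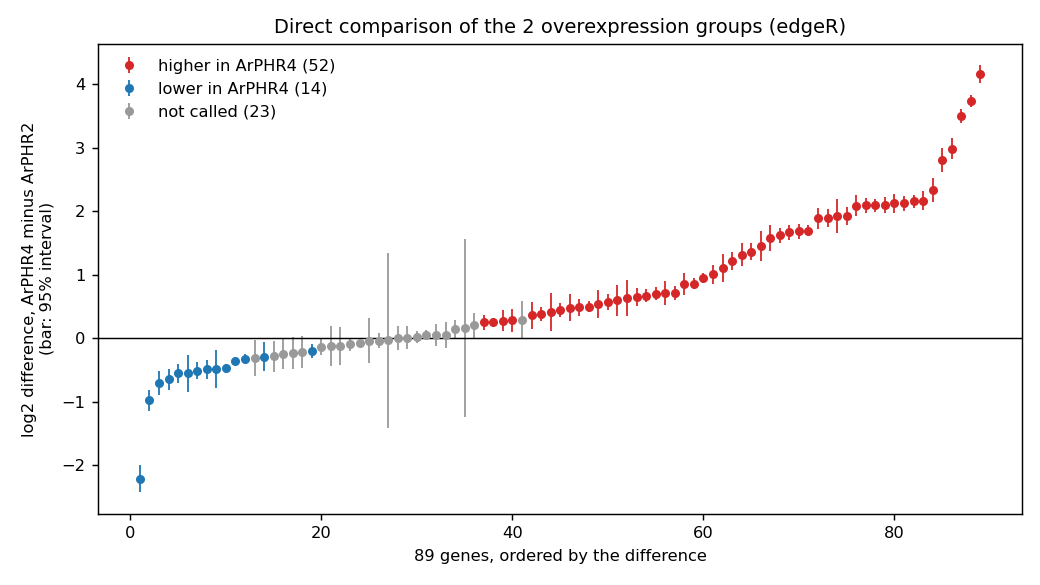
Log2 difference of ArPHR4 minus ArPHR2 for the 89 genes in order of size, each with its 95% interval from the edgeR fit and coloured by call. The 52 genes higher in ArPHR4 reach up to 4.16, while all but 1 of the 14 lower genes stay above -1, and the 2 widest intervals are those of members 53 and 84.

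The genes higher in ArPHR4 had a median log2 difference of 1.26 and a median rise over EV of 5.70-fold in ArPHR2 and 16.5-fold in ArPHR4. At least 4-fold higher were 14 of them, against 1 of the genes lower in ArPHR4. In these 14 the fold over EV was between 17.5 and 283 in ArPHR4, with a median of 41.8, while in ArPHR2 the median was 5.84, and 12 of the 14 did not pass 10-fold there. Their summed mean was 415 CPM in ArPHR2 and 2788 CPM in ArPHR4.

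The largest difference was that of TRINITY_DN3379_c0_g1, member 12, which had 4.97, 4.35 and 3.94 CPM in the EV libraries, 19.9, 23.4 and 27.5 CPM in ArPHR2 and 422, 432 and 439.7 CPM in ArPHR4. The groups did not overlap, and ArPHR4 was far above the other groups. Its log2 difference was 4.16 ± 0.0676 (SE, edgeR adjusted p = 2.61e-30). TRINITY_DN8213_c0_g1, member 10, had 4.85, 5.20 and 5.22 CPM in the EV libraries, 35.0, 37.2 and 35.0 CPM in ArPHR2 and 476, 490.1 and 498 CPM in ArPHR4. It too rose in steps from EV to ArPHR2 to ArPHR4 without overlap, with a log2 difference of 3.74 ± 0.0471 (SE, edgeR adjusted p = 3.19e-33). Members 13, 40 and 55 followed, with log2 differences of 3.50 ± 0.0548 (SE, edgeR adjusted p = 1.3e-30), 2.99 ± 0.0792 (SE, edgeR adjusted p = 1.67e-24) and 2.81 ± 0.0926 (SE, edgeR adjusted p = 5.54e-22). On log2(FPKM + 1) the difference of member 13 was 2.61, below the 2.94 of member 40 and the 2.75 of member 55. On the log2 scale of the counts, member 2, the one highest per length, was 0.86 ± 0.0420 (SE, edgeR adjusted p = 2.32e-17) higher in ArPHR4, and member 9 0.95 ± 0.0401 (SE, edgeR adjusted p = 4.29e-19).

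The 14 genes lower in ArPHR4 had a median log2 difference of -0.50, with median folds over EV of 10.4 in ArPHR2 and 7.26 in ArPHR4. TRINITY_DN5084_c0_g1, member 65, had 0.970, 0.544 and 1.33 CPM in the EV libraries, 50.1, 51.7 and 54.0 CPM in ArPHR2 and 11.6, 11.2 and 11.5 CPM in ArPHR4. Its ArPHR4 libraries lay between the other groups without overlap, and the log2 difference was -2.22 ± 0.105 (SE, edgeR adjusted p = 9.6e-18). The other ID of its assembly component, with which it can share reads, was at 22.7, 28.1 and 27.9 CPM in EV, ArPHR2 and ArPHR4, so the summed component rose 3.39-fold and 1.66-fold. TRINITY_DN6297_c0_g1, member 51, had 6.43, 6.83 and 7.16 CPM in the EV libraries, 58.6, 55.3 and 65.5 CPM in ArPHR2 and 31.8, 29.0 and 32.1 CPM in ArPHR4, a log2 difference of -0.98 ± 0.0792 (SE, edgeR adjusted p = 7.06e-12). It was again highest in ArPHR2, intermediate in ArPHR4 and lowest in EV. Members 62, 46 and 49 had log2 differences of -0.70, -0.65 and -0.56 (edgeR adjusted p = 1.69e-07, 6.79e-08 and 3.16e-07). Among the genes with the most counts, members 1, 3 and 6 were lower in ArPHR4, by log2 differences of -0.36, -0.48 and -0.33 (edgeR adjusted p = 3.87e-11, 9.03e-13 and 8.63e-09).

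For the 23 genes with no call between the constructs, the 95% interval of the log2 difference says how far apart they may be. It lay within 1 on either side of 0 in 21 of them and within 0.5 in 18. Member 4 had 20.1, 18.4 and 21.9 CPM in the EV libraries, 1379, 1392 and 1356 CPM in ArPHR2 and 1325, 1339 and 1355 CPM in ArPHR4. Both overexpression groups were close together, with an interval of -0.14 to 0.00304 (edgeR adjusted p = 0.14). Member 8 was at 87.4 ± 5.57, 399 ± 6.58 and 422 ± 12.4 CPM in EV, ArPHR2 and ArPHR4 (SD, n = 3), with an interval of -0.0356 to 0.13. The remaining 2 were members 53 and 84, with intervals of -1.42 to 1.35 and -1.24 to 1.56, too wide to say whether they differed.

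Calls higher in ArPHR4 outnumbered calls lower over most of the range of EV counts. Of the 41 genes with 1 to 5 CPM in EV, 24 were called higher and 5 lower, of the 23 with 5 to 10 CPM 14 and 3, and of the 15 with 10 to 50 CPM 10 and 2. In the 5 genes at 50 CPM or more, and in the 5 under 1 CPM, 2 were higher and 2 lower. Calls over all tested genes were not counted by range of EV counts, so these counts have no matching share beside them. They are only a description of the list.

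The fold over EV from the deposited FPKM was close to that from the counts for most of the 89 genes. The median FPKM fold was 5.85 in ArPHR2 and 11.1 in ArPHR4, and 79 genes were also at least 4-fold over EV on this scale in both groups. Of the other 10, all but members 5, 13 and 56 had a smaller FPKM fold between 3 and 4. Member 5 differed most. Its counts rose from 105 ± 3.30 CPM in EV to 470.3 ± 10.4 in ArPHR2 and 571 ± 5.30 in ArPHR4, 4.48-fold and 5.44-fold, whereas its FPKM went from 487 ± 11.4 to 389.9 ± 15.8 and 437 ± 18.2 (SD, n = 3), 0.800 and 0.897 times EV. So the count shows an increase for this gene and the FPKM does not. Between the constructs its counts differed by 0.25 ± 0.0365 (SE, edgeR adjusted p = 1.74e-06) on the log2 scale.

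**Figure D4:**
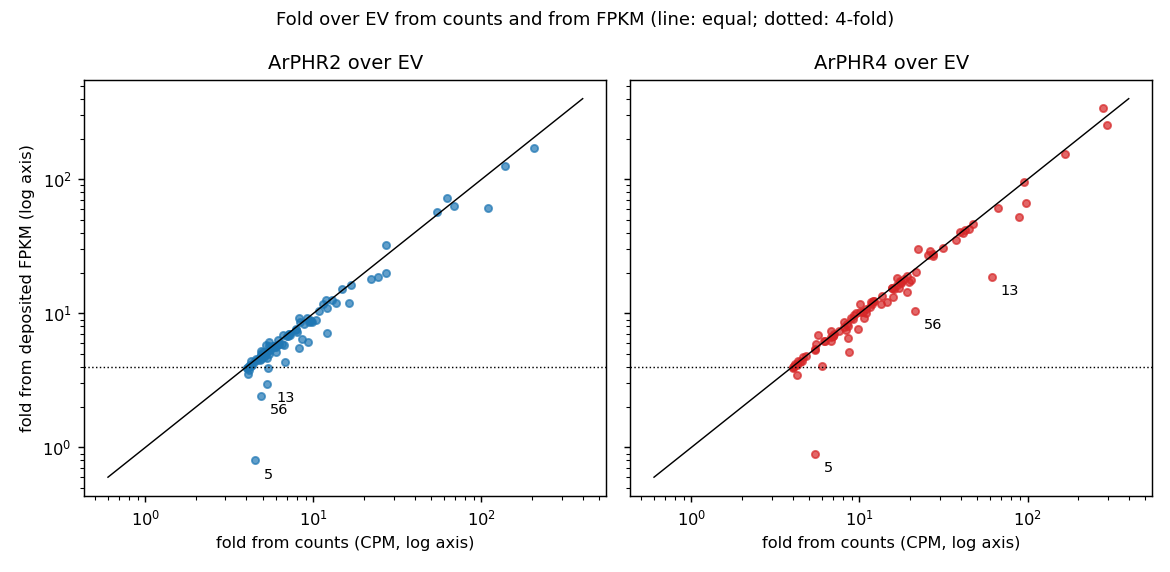
Fold of the group mean over EV from counts (horizontal) and from the deposited FPKM (vertical), both on log axes, for the 89 genes in ArPHR2 (left) and ArPHR4 (right). Most points lie near the line of equal folds, while members 5, 13 and 56 lie below it, and member 5 is the gene under 1 on the FPKM axis in both panels.

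Count divided by FPKM gives a gene an implied length, in bases once the library total is divided out. It could be examined in 76 of the 89 genes, those in which no library was under 20 counts or under an FPKM of 1, which leaves out genes that were low in EV. For member 5 the implied length was 208, 207 and 227 bases in the EV libraries, 1216, 1211 and 1166 in ArPHR2 and 1303, 1271 and 1405 in ArPHR4. Every EV library was far below every overexpression library. Member 13, among those that rose further in ArPHR4, had 437, 333 and 334 bases in EV, 672, 652 and 614 in ArPHR2 and 1252, 1199 and 1223 in ArPHR4. Member 56 had 759, 473 and 1427 bases in EV and between 1423 and 1494 in the overexpression libraries, so its EV libraries differed among themselves. In each overexpression group, 5 of the 76 genes were more than 1.5-fold away from EV, beside 1.65% of all 16333 genes examined in ArPHR2 and 2.13% in ArPHR4. The counts that chose the genes are part of the implied length, so nothing is read from this comparison.

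Against EV, limma called an implied length shift of any size in 38 of the 76 genes in ArPHR2 and 44 in ArPHR4, where 39.7% and 49.5% of all genes examined were called. The EV libraries of those contrasts chose the genes, and nothing is read from these counts. Between the constructs, limma called 2 of the 76 genes, a share no higher than the 5.37% of all genes examined. The ArPHR2 and ArPHR4 counts that chose the genes are part of this length too. Nothing is therefore read from the count of calls. Member 13 was longer in ArPHR4 by 0.92 ± 0.104 on the log2 scale (SE, limma adjusted p = 0.014), and member 50, outside the naming rule, by 0.16 ± 0.0251 (limma adjusted p = 0.0256). Beyond 1.5-fold lay 1 of the 76, member 13, near the share of 1.08% of all genes examined. Next in size were members 58 and 53, with log2 differences of 0.20 ± 0.0619 and -0.20 ± 0.261, neither of them called (limma adjusted p = 0.113 and 0.705). Without 1 library in turn, the log2 difference of member 13 stayed between 0.89 and 0.95, with adjusted p-values of 0.00395 to 0.0549 (limma), and that of member 50 between 0.14 and 0.18, with 0.0424 to 0.0870. The count of calls was then 0 to 2, and it was 0 without ArPHR2 library 2, ArPHR4 library 1 or ArPHR4 library 3, with 10, 11 and 10 genes at an unadjusted limma p under 0.05.

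IDs with all but the final number in common come from 1 component of the assembly and can share reads. Of the 89 genes, 55 were the only ID of their component and 34 were in 32 components with several IDs. Members 45 and 64 shared a component, and so did members 72 and 85. A further 46 IDs of those components were not among the 89, and 31 of them could be tested. Of these, 13 were called higher than EV in ArPHR2 and 7 lower, and in ArPHR4 13 higher and 9 lower, beside 22.6% and 26.1% of all tested genes called higher and 21.7% and 25.9% called lower. The shares called lower were thus near those of all tested genes. The median log2 change of the 31 was 0.55 in ArPHR2 and 0.50 in ArPHR4, beside 0.013 and 0.0065 over all tested genes.

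The component of members 45 and 64 rose as a whole, from 4.04 CPM in EV to 37.3 in ArPHR2 and 164 in ArPHR4, and its other 2 IDs were both called higher in both groups (edgeR). That of members 72 and 85 rose from 1.82 to 47.0 and 36.0 CPM, and both its other IDs were also called higher in both groups. With the counts of each component summed, 19 of the 32 components, holding 21 of the 34 genes, were still at least 4-fold over EV in both groups, and 28 were at least 2-fold. The smallest summed change was in the component of member 83, 1.25-fold in ArPHR2 and 1.59-fold in ArPHR4, where member 83 is a minor part of a component at 215 CPM in EV. The summed components of members 76 and 52 also stayed under 2-fold in a group, as did that of member 65. Counting only genes alone in their component or in one that passed as a whole, 76 of the 89 remained.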

How the data were processed

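RNA of 9 leaf libraries was measured by messenger RNA sequencing. Per the labels' protocols, total RNA was taken with a column kit and made into libraries with a SMARTER mRNA-Seq kit. The aligner, counter, assembler, strand setting and build were not found: each is not given in the sources used here, whose labels stop at library preparation. The whole-number counts and the FPKM values were used as deposited by the authors, per the file headers. Gene IDs are of the Trinity type. No per-library column was left out (0 columns). The other deposited files were not used as measurements.

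Samples were grouped by their titles and group label. The count test was that of edgeR 4.0.16 (R 4.3.3): filter by group, TMM scaling, 1 quasi-likelihood fit with 3 group means over all 9 libraries, and Benjamini-Hochberg adjustment over the 27275 tested genes. The standard error is the log2 difference divided by the square root of F. CPM values use library totals, and fitted differences use TMM-scaled totals. Implied length, centred on library medians, was tested with limma 3.58.1. DESeq2 1.42.0, limma on log2(FPKM + 1) and other settings were alternatives. The fits were also run on simulated data with fewer changed genes than were called here, and no result rests on that run.

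The genes, lists and tests were chosen with earlier results of these data known. By the naming rule, IDs are printed for the 2 genes with the largest smaller fold and the 2 with the largest called difference between the constructs in each direction. Other genes are given by number, by rank in level, fold, difference or implied length. Members 50, 52, 53, 56, 72, 76, 83, 84 and 85 and those sharing a component were singled out after their values were seen. A list of phosphate starvation genes and one of photosynthesis genes could not be applied, since the IDs have no names. Nothing in the labels ties libraries to separate plants. The p-values hence reflect only how far these libraries spread, and that spread may be technical. Where the strand setting is unknown, overlapping and antisense transcripts cannot be told apart. Counts are not independent molecules.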

Additional observations from a re-analysis of the deposited data

How the results depend on the processing

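The number of genes was 89 under the limits as given and 77 with TMM-scaled CPM. The TMM factors were 0.953 to 0.973 in the EV libraries and 0.994 to 1.03 in the overexpression libraries, which lowers every fold over EV. It was 148, 61 and 29 with a fold limit of 3, 5 and 8, 43 with an EV mean of at least 5 CPM, and 173 with FPKM in place of CPM, of which 77 were among the 89. Without 1 library in turn it was 83 to 90. Genes called higher in ArPHR4 than in ArPHR2 numbered 52, and 49 to 53 without 1 library, 47 with limma on log2(FPKM + 1), 51 with DESeq2 and 29 at 2-fold or more. Genes called lower numbered 14, and 12 to 15 without 1 library, 8 with limma on log2(FPKM + 1), 16 with DESeq2, 19 with upper-quartile scaling, 1 at 2-fold or more and 8 among the genes alone in their component, a setting chosen after seeing the data. The cause of these moves was not tested, except that stricter limits, smaller sets and the lower TMM-scaled folds leave fewer genes by construction. The median log2 difference was 0.42 to 0.51 without 1 library.

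Called higher than EV were 87 to 89 genes in each group without 1 library. Implied length shifts against EV numbered 38 in ArPHR2 and 44 in ArPHR4, and 23 and 15 with gene-wise centring, 3 and 3 at 1.5-fold or more, and 29 to 42 and 34 to 46 without 1 library. Between the constructs they numbered 2, and 1 at 1.5-fold or more. Without 1 library they numbered 0 to 2. Other IDs of the components called higher numbered 12 to 14 in ArPHR2 and 11 to 15 in ArPHR4 without 1 library. No call of the 12 genes whose difference was followed across settings reversed.

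By the limit used, an r over 0.1 in every pair, library numbers were not taken to pair the libraries. Whether a weaker link by number exists was not tested. Same-numbered libraries of different groups correlated in their deviations from the group mean with r of -0.00293 to 0.0365, positive in 8 of 9 pairs, and differently numbered ones with r of -0.0515 to 0.0299, positive in 7 of 18. As 1 example picked from these pairs, EV library 1 correlated more with ArPHR2 library 3 (0.0266) than with ArPHR2 library 1 (0.0171). With the library number as a replicate block, the calls between the constructs were the same 52 and 14 genes, and the implied length step called 0 genes between the constructs (limma, adjusted p = 0.0593 for member 13 and 0.0655 for member 50, with 13 genes at an unadjusted p under 0.05). Depth limits the folds of genes under 1 CPM in EV, which rest on few counts.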

Other observations

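Just outside the limits lay genes that rose as far in both groups. In the EV range, 68 more genes were at least 4-fold over EV in both groups but had a mean under 10 CPM in at least 1 of them. A further 2 genes passed all limits but that of at least 0.5 CPM in EV. No gene with 1000 CPM or more in EV was 4-fold higher in both groups. These are descriptions of the group means, chosen after the data were seen, with no test.

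The pattern of members 53 and 84 was looked for in the 21394 genes whose mean reached 1 CPM. In 12 of them, the library numbered 3 was at least 2 times both other libraries of its group in all 3 groups, and members 53 and 84 were 2 of the 12. For the libraries numbered 1 and for those numbered 2 the same count was 0. The labels give the libraries numbered 3 nothing in common but the number, and what they share was not tested.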
